A study of Gymnopus androsaceus with 9 samples.

Results

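This account concerns 150 genes of Gymnopus androsaceus whose transcript levels stepped upward from 2 to 5 months and again from 5 to 10 months of growth on pine needles. They were chosen from 29375 listed genes by their measured levels. A gene was taken when its mean level at 10 months was at least 10 and each later mean exceeded 1.5 times the one before. All 5-month libraries also had to lie above all 2-month libraries, and all 10-month libraries above all 5-month libraries. In all, 338 genes met these conditions, and the 150 with the highest ratio of the 10-month to the 2-month mean were kept. A level here is the number of reads unique to a gene, divided by the library's size factor and expressed per 1000000 reads of the mean library. Since these levels chose the genes, their rise is a description and carries no test.

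Gymnopus androsaceus, the horsehair fungus, is a litter-decomposing basidiomycete that colonises fallen conifer needles and forms thin black rhizomorphs. Fungi of this kind live from the litter itself: they secrete enzymes that break down plant polysaccharides, and many also attack lignin with peroxidases and laccases. As litter is used up, soluble compounds usually go first, while cellulose and lignin last longer. This is background, since the files list genes by JGI protein ID without products, and no statement is made on what any gene encodes. For the same reason the labelled tissue, mycelium, was not checked against marker genes, and no sequences are shown.

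The fungus grew on 11 g of Scots pine needles mixed with 85 g of sand, which had been sterilised with gamma rays and inoculated with a single needle already colonised by the fungus. Every microcosm received 20 ml of 100 mM ammonium chloride, was sealed and was kept at 20 °C. The harvests at 2, 5 and 10 months share all of these conditions. Each harvest is represented by 3 biological replicates, out of 4 microcosms harvested, and RNA was taken from 800 mg of ground material.

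The 9 libraries held between 21939600 and 96533143 unique gene reads. They differed in how many reads went to a few genes. The 10 genes with the highest mean level took 26.3% of reads in 2-month replicate 2, 20.2% in 10-month replicate 1 and 34.5% in 10-month replicate 2, against 5.52% to 9.63% in the other 6 libraries. This bears on every level below, because size factors set aside such genes while library totals do not. The 10-month replicate 2 library had 87370000 reads per unit of size factor, and the other libraries had between 42717000 and 58531000. In a pooled extract, more transcript per cell and more cells of one state cannot be told apart.

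Together the 150 genes grew from a trace of the transcript pool into a larger part of it. They took 0.345% ± 0.0371 of unique gene reads in 2-month libraries, 1.70% ± 0.194 in 5-month libraries and 3.53% ± 0.586 in 10-month libraries (SD, n = 3 each). By library these shares were 0.387%, 0.315% and 0.333% at 2 months, 1.63%, 1.55% and 1.92% at 5 months, and 2.87%, 3.74% and 3.99% at 10 months. Each library of a later harvest was above each library of an earlier one. This measure uses no size factor, but the genes were chosen to rise in the same reads of the same libraries. The order is therefore largely set by that choice. The mean level of the median member was 4.91, 22.3 and 85.3 in order of harvest. At 2 months 53 of the 150 genes had a mean of at least 10, at 5 months 98, and at 10 months all 150 by choice. A mean of at least 100 was reached by 7, 27 and 68 genes in the same order of harvests.

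**Figure D1:**
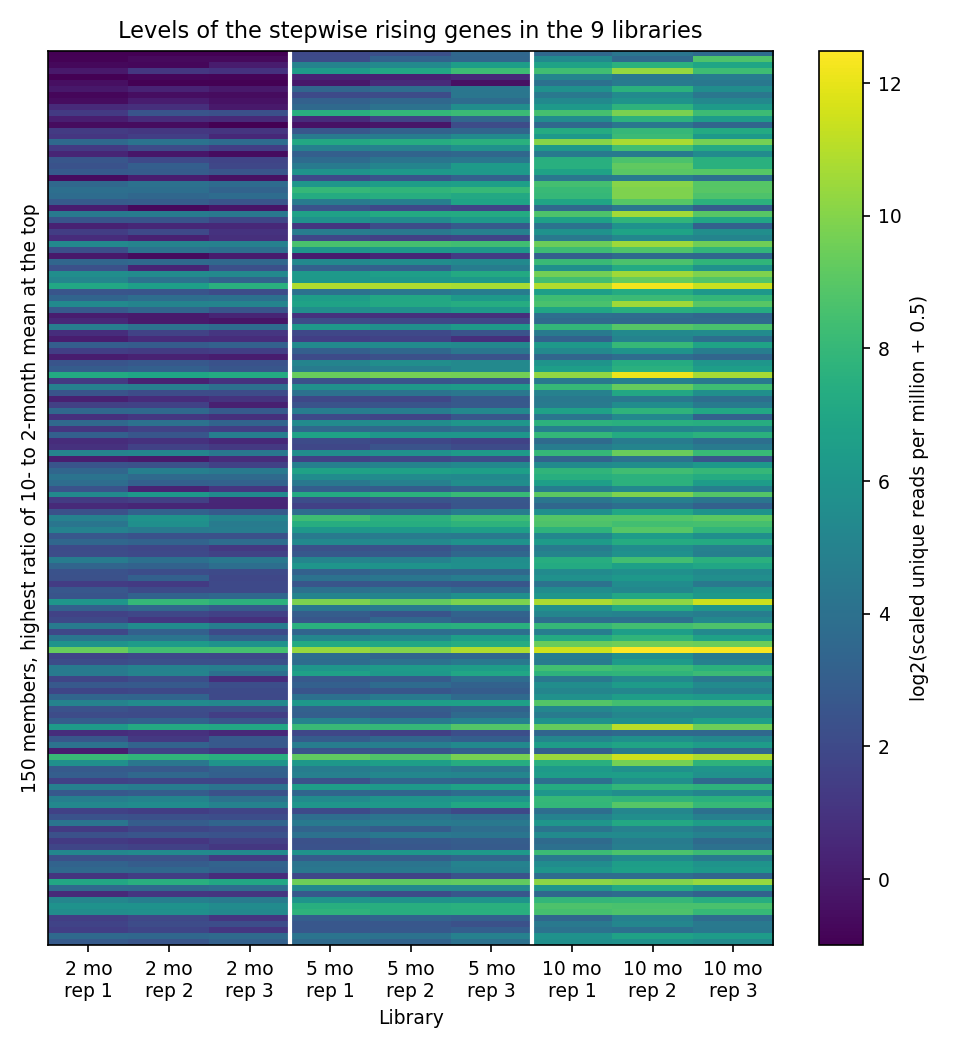
Levels of the 150 genes (down the page, highest ratio of 10- to 2-month mean at the top) in the 9 libraries (across), as log2 of the scaled unique reads per 1000000 plus 0.5. The colour steps brighten at both white lines, which separate the harvests, and the column of 10-month replicate 2 is the brightest for 119 of the 150 genes.

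**Figure D2:**
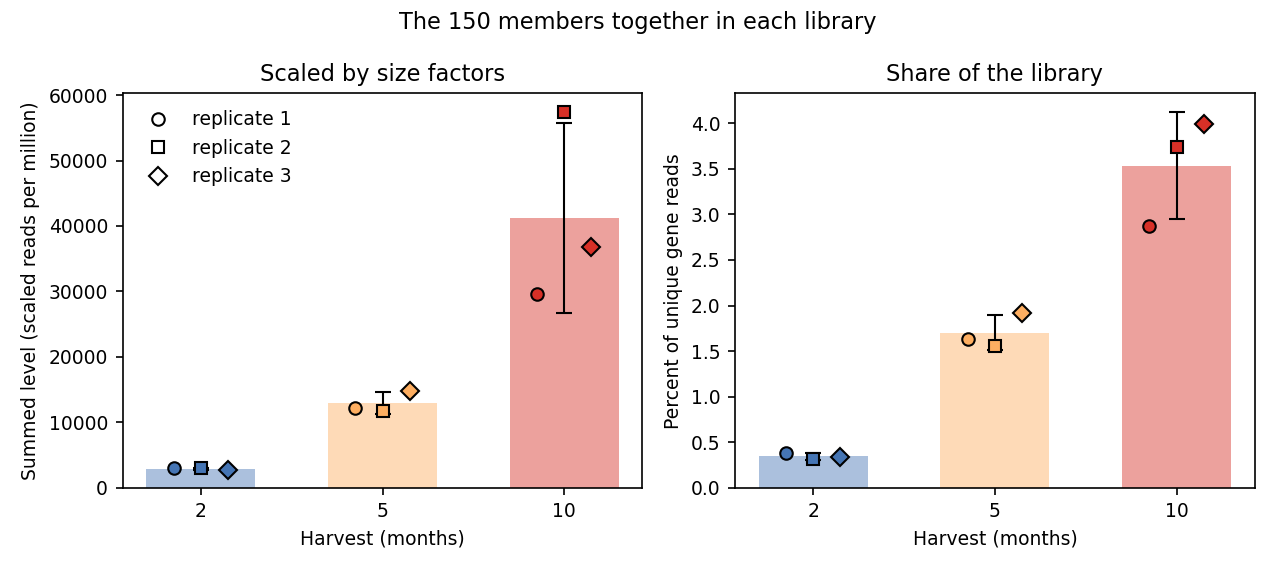
The 150 genes summed in each library, as the sum of scaled levels (left) and as the percent of unique gene reads (right), by harvest in months. Bars are means of 3 libraries, error bars are SD and symbols mark the replicates. On the left, 10-month replicate 2 stands far above the other 10-month libraries, and on the right it lies between them.

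The scaled sum over the members was 2964, 2969 and 2660 at 2 months, 12249, 11663 and 14853 at 5 months, and 29551, 57371 and 36746 at 10 months. On this scale 10-month replicate 2 was highest by far, while by share of reads it lay below 10-month replicate 3. The pair of genes with the most reads, described next, did not carry the pattern alone: without them the shares in order of harvest were 0.273% ± 0.0110, 1.28% ± 0.155 and 2.85% ± 0.395 (SD, n = 3 each).

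The genes that ended highest were JGI protein IDs 984549 and 995796, by reads and also per length. Levels of ID 984549 were 643, 344 and 358 at 2 months, 1352, 997 and 1910.4 at 5 months, and 2965, 5745 and 5336 at 10 months. Replicate 1 was the highest of its 2-month libraries and the lowest of its 10-month libraries, and no harvests overlapped. Its steps were among the most even of the abundant members, with log2 steps of 1.66 from 2 to 5 months and 1.72 from 5 to 10 months, where log2 steps are taken on the mean level plus 0.5. ID 995796 had levels of 134, 98.9 and 191 at 2 months, 1869.6, 1830.3 and 1687 at 5 months, and 1894, 4941 and 2664 at 10 months. Most of its rise was made by 5 months, which held 54.7% of the gain from 2 to 10 months, and its lowest 10-month library was barely above its highest 5-month library.

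Per length of transcript, in the authors' RPKM, 6 members were among the 100 highest genes at 10 months, compared with 3 at 5 months and 0 at 2 months. Mean RPKM of ID 995796 was 241 ± 93.2, 3294 ± 212 and 3699.7 ± 1009.6 at the 3 harvests (SD, n = 3 each), which placed it at rank 642, 21 and 14 of all genes. ID 984549 stood at rank 450, 83 and 28. The other 4 members of that group at 10 months, named after their values were seen, were IDs 924252, 525807, 808685 and 1017048 at ranks 30, 70, 76 and 98. Among the 1000 highest genes there were 4 members at 2 months, 16 at 5 months and 51 at 10 months, and the median member moved from rank 11708 through 5605 to 2134. The genes were chosen to rise in these same libraries, so this climb in rank is largely set by that choice. RPKM is scaled to library totals, so its steps are smaller at 10 months than those of the levels. In RPKM all 150 genes had a higher mean at 10 than at 5 months, but 131 rose by over 1.5 times, and in 121 the 10-month libraries all lay above the 5-month libraries. For ID 995796 they did not, since its 10-month replicate 1 stood at 2569 RPKM against 3052 to 3446 RPKM in the 5-month libraries. These RPKM counts use the same libraries in which the genes were chosen to rise without overlap, so that choice largely sets them. They have no share over all genes beside them and only describe the members.

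Over the members as a group both steps were of like size on the scale of the levels, although single genes differed widely. The median log2 step was 1.70 from 2 to 5 months (quartiles 1.23 and 2.31) and 1.82 from 5 to 10 months (quartiles 1.43 and 2.28). Over the 9323 genes with a 10-month mean of at least 10, the medians were -0.04 and 0.15. By library totals the members' median steps were 1.84 and 1.22, so the earlier step was then the larger one. The earlier interval is 3 months long and the later one 5 months, and per month the log2 step was larger in the earlier interval in 112 of the 150 genes, with medians of 0.57 and 0.36 per month. Counted as reads, the balance was the other way. By 5 months the median member had made 20.1% of its total gain, when 37.5% of the time from 2 to 10 months had passed, and 132 of the 150 genes were below that share. Most members thus had the larger fold per month before 5 months and the larger gain in level per month after it. The choice of genes favours both. At the ratios kept, equal log2 steps in both intervals already give this result, so these counts only describe the chosen genes. By library totals, the median gain by 5 months was 34.1% and 88 genes lay below the share of time, while 130 had the larger log2 step per month before 5 months.

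**Figure D3:**
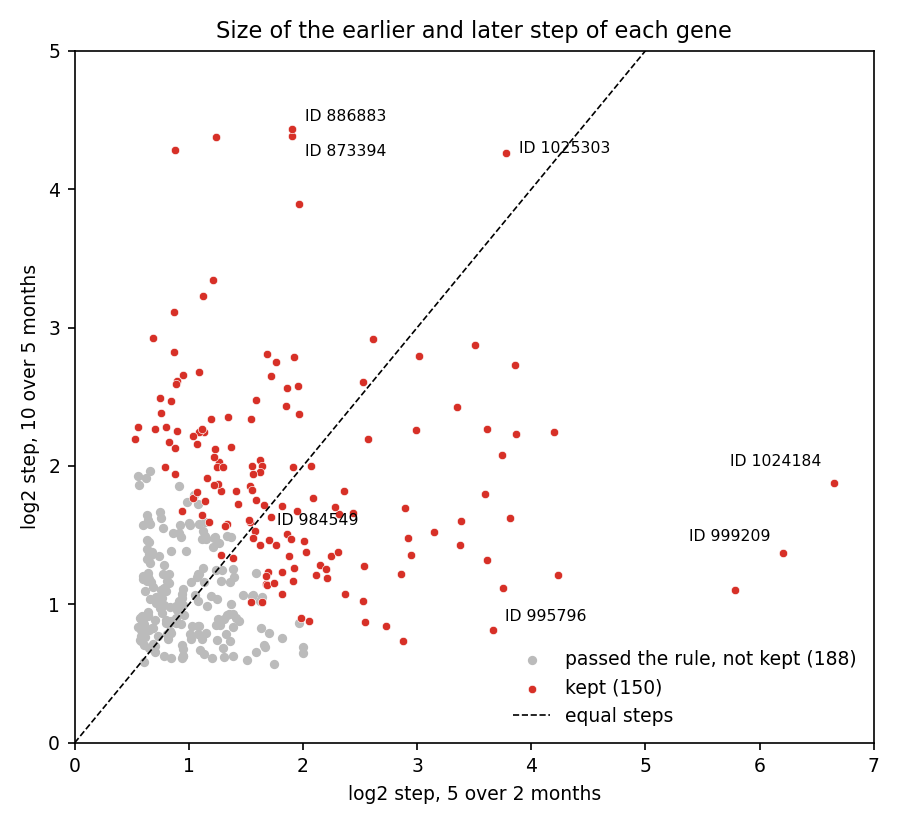
The log2 step from 2 to 5 months (across) and from 5 to 10 months (up) for the 150 genes kept (red) and the 188 that passed the rule and were not kept (grey). Points below the dashed line had the larger step before 5 months, as in 71 of the 150 genes, and points above it after 5 months, as in the other 79.

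The earlier log2 step was larger by over 1 unit in 30 genes, the later one in 34, and 86 had steps within 1 log2 unit of each other. Genes with the larger earlier step had median levels of 4.85, 59.0 and 151 in order of harvest. In those with the larger later step the medians were 3.12, 5.80 and 37.6. The median gain made by 5 months was 37.3%, 8.88% and 21.6% in these 3 groups, in the order given. Counted in levels, only 3 of the 150 genes had made over 50% of their gain by 5 months.

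The largest early log2 steps, on levels plus 0.5, were those of IDs 1024184 and 999209, at 6.65 and 6.21. With nothing added, ID 943714 had the largest fold from 2 to 5 months, at 1279 against 140 and 229. That fold rests on 1 read at 2 months. Levels of ID 1024184 were 0.458, 1.81 and 1.49 at 2 months, 88.3, 138 and 301 at 5 months, and 323, 1304 and 315 at 10 months. Its 10-month replicate 2 was 4.14 times the lowest 10-month library, the other 10-month libraries were close to the highest 5-month library, and its log2 ratio of 10 to 2 months was 8.53, or 7.51 without 10-month replicate 2. ID 999209, whose transcript is the shortest among the members at 276 bases, had levels of 0.103, 0.0936 and 0.509 at 2 months, 31.8, 39.9 and 89.8 at 5 months, and 108, 193 and 120 at 10 months. Its 2-month levels rest on 7, 3 and 14 reads, and both later harvests lay far above them.

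The largest late log2 steps, with the same constant added to the levels, were those of IDs 886883 and 873394, at 4.43 and 4.39. With nothing added, IDs 918399 and 926935 had larger folds from 5 to 10 months, at 35.8 and 32.9. Those of IDs 886883 and 873394 were 22.9 and 23.0. The 5-month means of IDs 918399 and 926935 were low, at 0.562 and 0.821. ID 886883 had levels of 2.05, 1.78 and 1.64 at 2 months, 5.82, 8.92 and 9.89 at 5 months, and 159, 254 and 150 at 10 months. Replicates were close at each harvest, with the highest library at most 1.70 times the lowest. ID 873394 had levels of 0.606, 1.15 and 1.02 at 2 months, 1.17, 2.88 and 10.5 at 5 months, and 46.6, 201 and 86.9 at 10 months. Its 5-month libraries were spread over 8.99 times, and the lowest of them was next to the highest 2-month library.

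**Figure D4:**
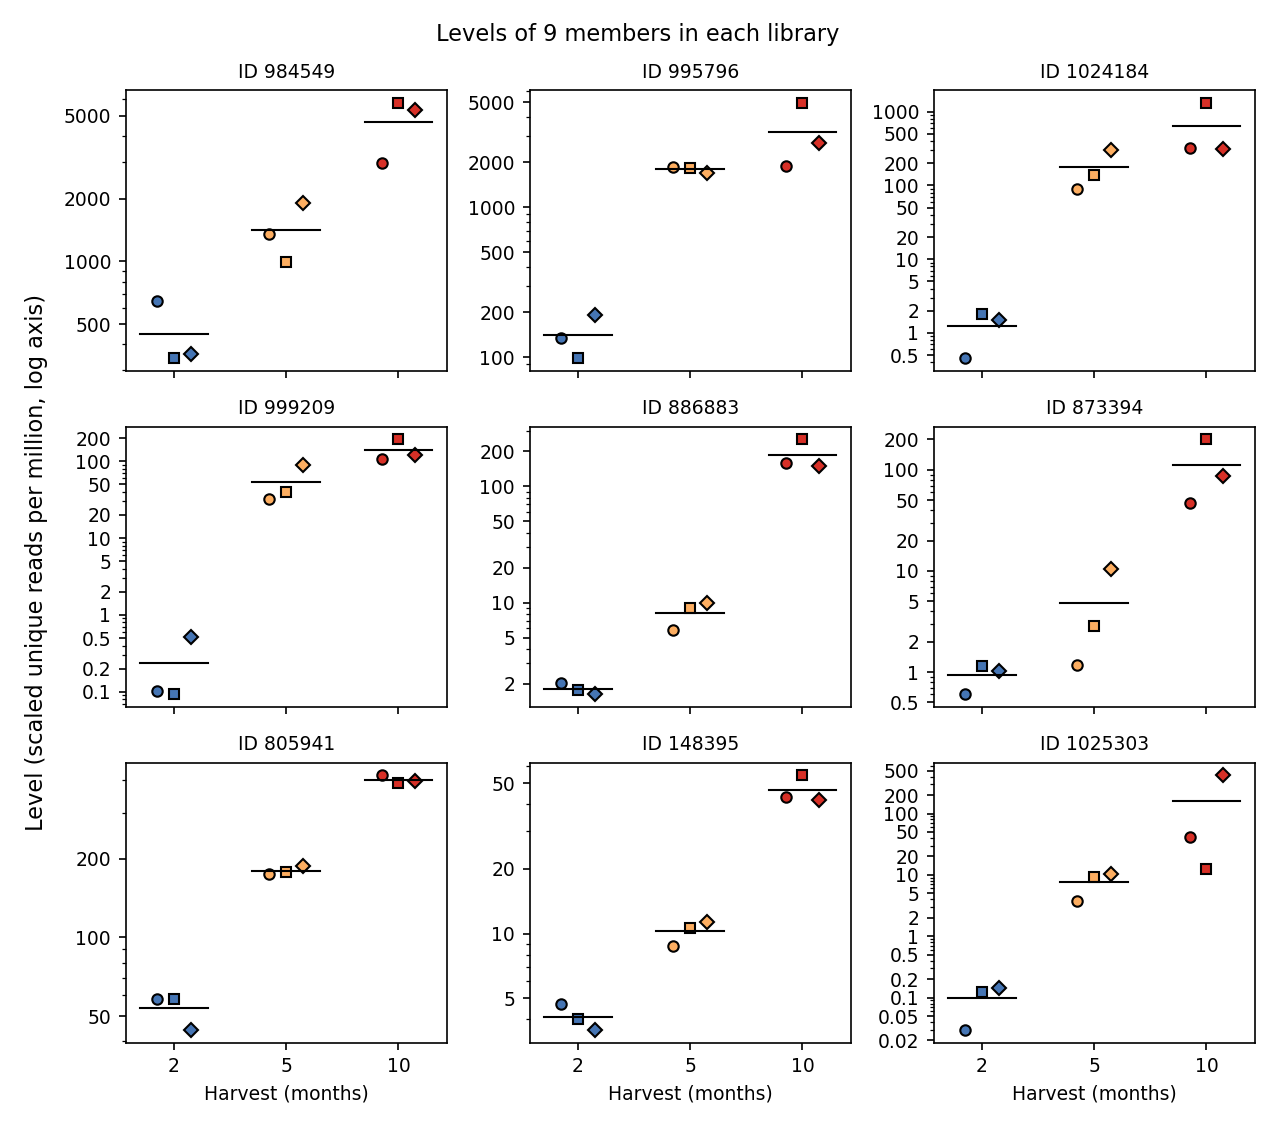
Levels of 9 members in each library (scaled unique reads per 1000000, log axis) by harvest in months, with circles, squares and diamonds for replicates 1, 2 and 3 and a line at the mean. IDs 1024184 and 999209 jump before 5 months, IDs 886883 and 873394 after it, IDs 805941 and 148395 show little spread, and ID 1025303 spreads over 33.9 times at 10 months.

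The highest ratios of 10 to 2 months rested on very few early reads. ID 943714 had 1, 0 and 0 reads in the 2-month libraries, and levels of 3.41, 4.44 and 11.1 at 5 months and 11.1, 19.0 and 12.6 at 10 months. Its ratio of mean levels, which ranked it first, was 2895. Pooled over the libraries of each harvest, it had 1 read at 2 months and 2887 at 10 months. The scaled ratio of these pooled reads was 1726, with an exact (Clopper-Pearson) 95% interval of 310 to 68201 that covers counting error only. The second gene by ratio, ID 1025303, had 2, 4 and 4 reads at 2 months, levels of 3.69, 9.12 and 10.4 at 5 months, and levels of 42.0, 12.4 and 419 at 10 months. Its 10-month replicates were the most unequal of all members, and 10-month replicate 2 was the lowest, unlike in most members. Without 10-month replicate 3 its log2 ratio of 10 to 2 months was 5.53, compared with 8.04 with all libraries. A share of 34.8% of its reads was not unique to it, so its level is uncertain. No member was without reads in all 2-month libraries, and 133 of the 150 had at least 100 reads over them.

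On the scale of the levels, the rises with the least spread were those of IDs 805941 and 148395. ID 805941 stood at 58.1, 58.1 and 44.2 at 2 months, 175, 178 and 188 at 5 months, and 417, 388 and 398 at 10 months. Within no harvest did its highest library exceed 1.32 times its lowest, while the means were 53.5 ± 8.05, 180 ± 6.85 and 401 ± 14.7 (SD, n = 3 each). This closeness depended on scaling: in RPKM, ID 805941 stood at 272, 170.3 and 288 at 10 months, where replicate 2 was near the 155 to 163 RPKM of the 5-month libraries. ID 148395 stood at 4.73, 4.02 and 3.57 at 2 months, 8.75, 10.7 and 11.4 at 5 months, and 43.2, 54.5 and 41.9 at 10 months. ID 414877, with ID 984549 the gene with the most even steps among members over 100 at 10 months, had log2 steps of 2.07 and 2.00, with means of 6.99 ± 1.22, 30.9 ± 8.17 and 125.2 ± 54.0 (SD, n = 3 each). Largest after ID 1025303 was the spread of ID 864042 at 10 months, where its levels were 17.3, 57.6 and 8.71.

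Replicates of one harvest differed widely in many members, although the rule removes genes whose harvests overlap. The ratio of the highest to the lowest library had a median of 1.72 at 2 months, 1.52 at 5 months and 1.94 at 10 months in the members. Over the 9323 genes with a 10-month mean of at least 10, the medians were 1.40, 1.28 and 1.28. Those genes were not matched to the members by level. Keeping the highest ratios of means can also favour genes with a very high 10-month library. The part of either in this difference was not tested. On levels with nothing added, the lowest 5-month library was a median 2.21 times the highest 2-month library, and the lowest 10-month library 2.00 times the highest 5-month library. On levels plus 0.5, the narrower of both gaps was under 1.2 times in 30 of the 150 genes and at least 1.5 times in 82.

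Within a harvest, many members were highest in the same library. The rule does not require such an order, but keeping the highest ratios of means can favour genes with 1 very high 10-month library. The part of that choice in the counts below was not tested. In 119 of the 150 genes (79.3%) the highest 10-month library was replicate 2, while over 9521 genes with a mean level of at least 10 this share was 44.5%. At 5 months replicate 3 was highest in 103 members (68.7%, against 43.7% of those genes), and at 2 months replicate 2 in 71 (47.3%, against 27.2%). The lowest libraries were 10-month replicate 1 in 82 members (54.7%, against 42.1% of those genes), 5-month replicate 1 in 89 (59.3%, against 27.1%) and 2-month replicate 3 in 69 (46.0%, against 29.5%). The libraries highest for the members at 2 and 10 months are also those in which 10 genes took the largest shares of reads. In 10-month replicate 1, however, those 10 genes took 20.2% of reads, and it was the lowest library for 82 members. The part of that composition in this order was not tested, but the order at 10 months was sensitive to scaling: by library totals, 10-month replicate 2 was highest in 69 members, replicate 3 in 54 and replicate 1 in 27. The 5-month order changed less, with replicate 3 highest in 98 to 103 members under every scaling and read count tried. Without 10-month replicate 2, 142 of the 150 members still met the rule. Size factors were kept, so leaving out a library can only loosen the no-overlap condition, and a member could fail only on its means.

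**Figure D5:**
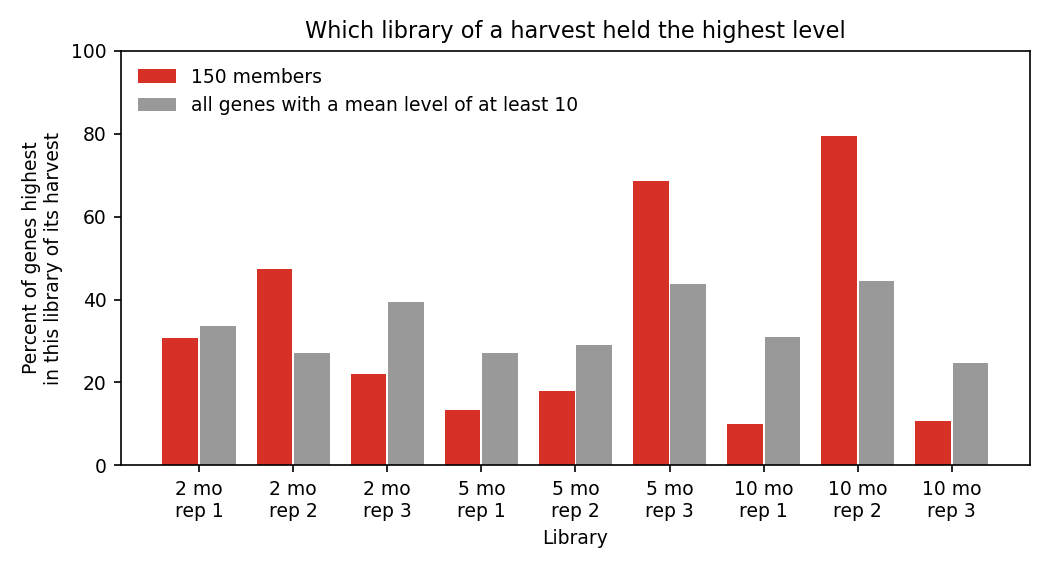
Percent of genes whose level was highest in the given library of its harvest, for the 150 genes (red) and for all genes with a mean level of at least 10 (grey). The members reach 79.3% in 10-month replicate 2 and 68.7% in 5-month replicate 3, above the grey bars at 44.5% and 43.7%.

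Features that the rule did not use were compared without a test. The transcript length implied by the deposited values had a median of 1181 bases in the members (quartiles 826 and 1567) and of 1329 bases in genes with a 10-month mean of at least 10. Reads that also map to other genes made up at least 10% of all reads in 21 of the 150 members (14.0%). The same held for 466 of those 9323 genes (5.00%) and for 11.4% of all genes with reads. Such members may be one of several near copies, and their levels are uncertain. The most affected were IDs 1021518 and 862724, with 45.7% and 44.8% shared reads. Levels of ID 1021518 were 1.18, 1.40 and 0.946 at 2 months, 3.20, 2.48 and 4.22 at 5 months, and 9.96, 11.8 and 11.1 at 10 months. Counting total in place of unique reads kept 147 of the 150 members within the rule.

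In edgeR's quasi-likelihood test across 20168 genes, with a Benjamini-Hochberg adjusted p under 0.05, 130 members were called higher at 5 than at 2 months and 137 higher at 10 than at 5 months, where 11.6% and 9.94% of all tested genes were. Both calls were made for 119 members, and for 1.47% of tested genes. All 150 were called higher at 10 than at 2 months, where 17.5% of tested genes were. The rule used the same levels in the same contrasts, and these comparisons share libraries, so the counts say how many of the chosen genes the test also calls and nothing on the genes' rise itself. Of the remaining genes, 11 were called in the earlier interval alone, 18 in the later one alone and 2 in neither. Leaving out the 3 libraries richest in the 10 abundant genes, which leaves 1 library at 10 months that is assumed to vary like the others, 83 members were called from 5 to 10 months and 69 in both intervals, where 2.69% and 0.507% of tested genes were. Single libraries also mattered: 95 and 90 members were called in both intervals when 5-month replicate 1 or 2 was left out, where 0.868% and 0.818% of tested genes were. In each of these fits the share over tested genes was lower too.

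At the limit of 150, the last genes kept were IDs 1011277 and 915490, with ratios of 10 to 2 months of 7.33 and 7.32. The first not kept were IDs 973225 and 921013, with 7.31 and 7.26. ID 921013 had levels of 119, 137 and 142 at 2 months, 439, 272 and 321 at 5 months, and 704, 924 and 1263 at 10 months. The ratios on both sides of the limit were close, but the steps were not alike: log2 steps were 0.88 and 1.94 in ID 1011277, the last but one kept, and 1.37 and 1.49 in ID 921013. The 188 genes not kept had median log2 steps of 0.92 and 1.01.

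Genes that rose stepwise were set beside genes that fell stepwise by the same rule with 2 and 10 months exchanged. The rule found 338 rising genes (1.15% of those listed) and 149 falling ones (0.507%). At ratios as large as that of the last member kept there were 150 rising and 39 falling genes. The balance depended on scaling. By library totals, which move the median log2 step of all genes with reads from 5 to 10 months to -0.32, 191 genes rose stepwise and 283 fell, and 107 of the 150 members still met the rule. With TMM factors and upper-quartile scaling the counts were 338 and 307 rising against 152 and 174 falling, with 150 and 143 of the members kept.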

How the data were processed

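Each of the 9 deposited tables lists 29375 JGI protein IDs with unique gene reads, total gene reads and RPKM, per the file headers. The aligner, counter, genome build and gene models were not given in the sources used here. The authors' read columns are raw counts. The authors' RPKM uses the column sum of total gene reads as library size, since both columns implied 1 length per gene within 0.01 bases for all 25486 genes with reads. Members and lists were chosen with earlier results of these data known.

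Median-of-ratios size factors (as in DESeq2) were computed in Python 3.11.15 with pandas 2.3.3 and numpy 2.4.6. Levels are unique gene reads over the size factor, per 1000000 reads of the mean library total. Log2 steps use a pseudocount of 0.5. Calls were made with edgeR 4.0.16 in R 4.3.3 (TMM, filterByExpr, robust quasi-likelihood fits, all 9 libraries, no covariate, 6 residual degrees of freedom), tested on simulated data first. Where 3 reads are the floor, it lay at levels of 0.0288 to 0.109. Named genes were those highest by ratio, reads, RPKM, either step, evenness, spread, steadiness or shared reads, and those beside the limit of 150, a pair each. Gene lists by product name could not be applied. Alternatives were other scalings, total gene reads, thresholds, filters, DESeq2 1.42.0, limma voom 3.58.1, a block for replicate number and single libraries left out. Figures were drawn with matplotlib 3.10.9.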

Additional observations from a re-analysis of the deposited data

How the results depend on the processing

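Over single libraries left out, the number of genes meeting the rule ran from 323 to 388, the mirror-image count from 140 to 182, the median log2 step from 1.66 to 1.79 (5 over 2 months) and from 1.54 to 2.05 (10 over 5 months), and the members called from 111 to 138, 110 to 136 and 90 to 118 (earlier interval, later interval, both), where 8.53% to 11.7%, 5.78% to 10.5% and 0.818% to 1.37% of tested genes were. Library totals gave 191 rising and 283 falling genes, a later median step of 1.22 and 69 members highest in 10-month replicate 2. A lower minimum step gave 529 rising and 289 falling genes, a minimum step of 2 gave 172 and 50, and no minimum level gave 240 falling genes. Without the 3 libraries richest in 10 genes, an alternative added after seeing the data, 83 members were called in the later interval and 69 in both (2.69% and 0.507% of tested genes), and 137 of 150 still met the rule. The median steps and the ratios of 10 to 2 months of the named genes stayed above 0 in log2 in the alternatives run. These genes were chosen with no overlap between harvests, which largely sets those signs in advance. The rule counts kept the size factors when libraries were left out. This can only loosen the no-overlap condition, so a member could fail only on its means. The balance of rising and falling genes turned by library totals. The cause was not tested. Between harvests, deviations of same-numbered libraries had correlations of -0.34 to 0.16. Libraries of different numbers were not compared, so these values cannot decide whether replicate numbers pair the libraries. With a replicate block 377 genes met the rule, 120 members were called in both intervals (1.16% of tested genes), and median steps were 1.71 and 1.77. Levels near 3 reads, as for ID 943714 at 2 months, limit the ratios of the lowest genes.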

Other observations

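Some members lie beside each other in the deposited gene listing. IDs 926935, 926940 and 926942, chosen after their values were seen, are 3 consecutive entries, and IDs 1021516 and 1021518 are another 2. No position on a chromosome is drawn from this, because the files give none. ID 926942 had levels of 36.6, 16.6 and 9.17 at 2 months, 71.8, 72.7 and 71.5 at 5 months, and 338, 664 and 461 at 10 months. ID 926935 was rarer, at means of 0.0604, 0.821 and 27.0 at 2, 5 and 10 months, and ID 926940 stood between them at 2 and 5 months, with means of 2.08 and 7.91. At 10 months ID 926940 had the lowest mean of the 3 genes, at 22.7. Their transcripts differ in length, at 1468 bases for ID 926935, 657 for ID 926940 and 577 for ID 926942, and 1.06% or less of their reads also map elsewhere. For IDs 1021516 and 1021518 this share was 7.18% and 45.7%.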
